A study of Mus musculus with 20 samples.

Results

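The genes described here are 10 genes of the lysosome and its surroundings, of 55642 genes in the deposited files. They were taken by symbol as a fixed list made up of Ctsl, Ctsb, Ctsd, Ctse, Ifi30, Gm2a, Lamp1, Lamp2, Tfeb and Aplp2. They were chosen by measured values of these libraries, with their changes after JQ1 known and no single contrast or threshold recorded, so those changes are a description and no independent evidence, and nothing is read from their counts against the share of all genes called. The adjusted p-values of those changes, from fits over all genes, show where each gene stood among all genes tested. The measures that the choice did not rest on are the split of each gene into transcripts and the promoter sequences. The levels of both organs under vehicle come from libraries whose values entered the choice, so they are a description too. The other gene lists were also chosen with earlier results of these data known, so their changes after JQ1 are a description as well. Of the 10 genes, 10 passed the filter on low counts in each organ.

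Kidney and liver of male DBA/2J mice, an inbred strain, were profiled by bulk RNA-seq. All mice received JQ1, an inhibitor of the BET bromodomain proteins, at 50 mg/kg by intraperitoneal injection every day for 3 weeks, or vehicle on that schedule. The treatment groups were taken as dosing stopped, at the age of 10 weeks, and the recovery groups were left without drug for 6 weeks and taken at 16 weeks. For JQ1 there were 3 treatment and 3 recovery libraries per organ, and for vehicle 3 treatment libraries and 1 recovery library. The vehicle libraries of an organ, 4 in number, formed its control, so most controls were younger than the recovery group. A supplementary legend of the study differs from the labels in the vehicle numbers and in the length of recovery, and the labels were followed here. The labels do not state that libraries of a group came from separate animals, so p-values measure the spread between libraries. In whole tissue, fewer cells of a type and less RNA per cell cannot be told apart.

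The lysosome is the acidic compartment in which cells degrade proteins, glycans and lipids that arrive by endocytosis and autophagy. Cathepsins are its proteases, membrane glycoproteins of the LAMP family line its wall, and the transcription factor TFEB switches on many of its genes by binding a short palindromic motif near their start. The proximal tubule of the kidney degrades filtered proteins in lysosomes, and hepatocytes rely on them for autophagy and for the turnover of plasma proteins. APLP2 is a relative of the amyloid precursor protein, a membrane protein that is cut by secretases and that traffics through endosomes.

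Libraries held 13952510 to 26895318 reads in kidney and 11968500 to 17529910 in liver. The 10 liver markers summed to 79375 to 90418 CPM (read counts divided by the library total and multiplied by 1000000, without further scaling) in treated liver, 69154 to 76406 in control and 35383 to 63000 in recovery. The 10 kidney markers summed to 15396 to 17018 CPM in treated kidney, 17777 to 27077 in control and 24461 to 26553 in recovery. Treated libraries thus lay above all controls in liver and below them in kidney, and the part of these shifts in the changes below was not tested. In liver JQ1 recovery, replicates 2 and 3 went against their label in part. The kidney sodium-phosphate cotransporter Slc34a1 stood at 1092 and 289.7 CPM there, against 0 to 1.59 CPM in all other liver libraries, and the liver calls are therefore given with and without both libraries. Replicate 1, the remaining recovery library, held 25.4 CPM of summed kidney markers against 2.01 to 5.31 CPM in the liver treatment and control libraries, and fits with it alone take the spread of the recovery group from the other groups. In kidney, JQ1 treatment replicate 1 held the macrophage lysozyme Lyz2 at 317 CPM against 19.0 to 60.0 CPM in the other 9 kidney libraries, and results that rest on it are given without it.

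At the end of JQ1 treatment, 4 of the 10 genes had risen in kidney and 0 had fallen (edgeR, adjusted p below 0.05), where 4.13% of the 17158 genes tested were called and 1.4% were called higher. Aplp2, Ifi30, Ctsl and Gm2a made up the 4. In liver, Aplp2 rose and Ctse fell, with 0.495% of 14559 genes called. After recovery, 0 of the 10 differed from control in either organ, with 0.00583% of genes called in kidney and 0.0343% in liver. At an unadjusted p below 0.05, edgeR had 0 of the 10 in kidney recovery and 4 in liver recovery, and DESeq2 called 0 in kidney and 1, Ctsl, in liver. With liver JQ1 recovery replicate 1 left out, which leaves only the libraries with kidney RNA, edgeR called 4 in liver recovery, Ctsl, Ctsb and Ctse lower and Ifi30 higher. Against recovery, JQ1 treatment was higher for Aplp2, Ifi30, Ctsb and Ctsl in kidney (7.31% of genes called) and for Ctsl, Aplp2 and Ctsb in liver (2.29% called). The kidney calls of Ctsb and Ctsl were lost without JQ1 treatment replicate 1. Without the liver recovery libraries with kidney RNA, Ctsl (0.74 ± 0.13, adjusted p = 0.0077) and Aplp2 (0.75 ± 0.13, adjusted p = 0.00529) were still called, Ctsb was not (from 0.46 ± 0.11, adjusted p = 0.0487, to 0.32 ± 0.12, adjusted p = 0.348), and Ctse was called lower (-1.08 ± 0.22, adjusted p = 0.0183), where 0.887% of genes were called. The treatment comparisons share their JQ1 libraries, and the comparisons with control share their vehicle libraries.

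**Figure D1:**
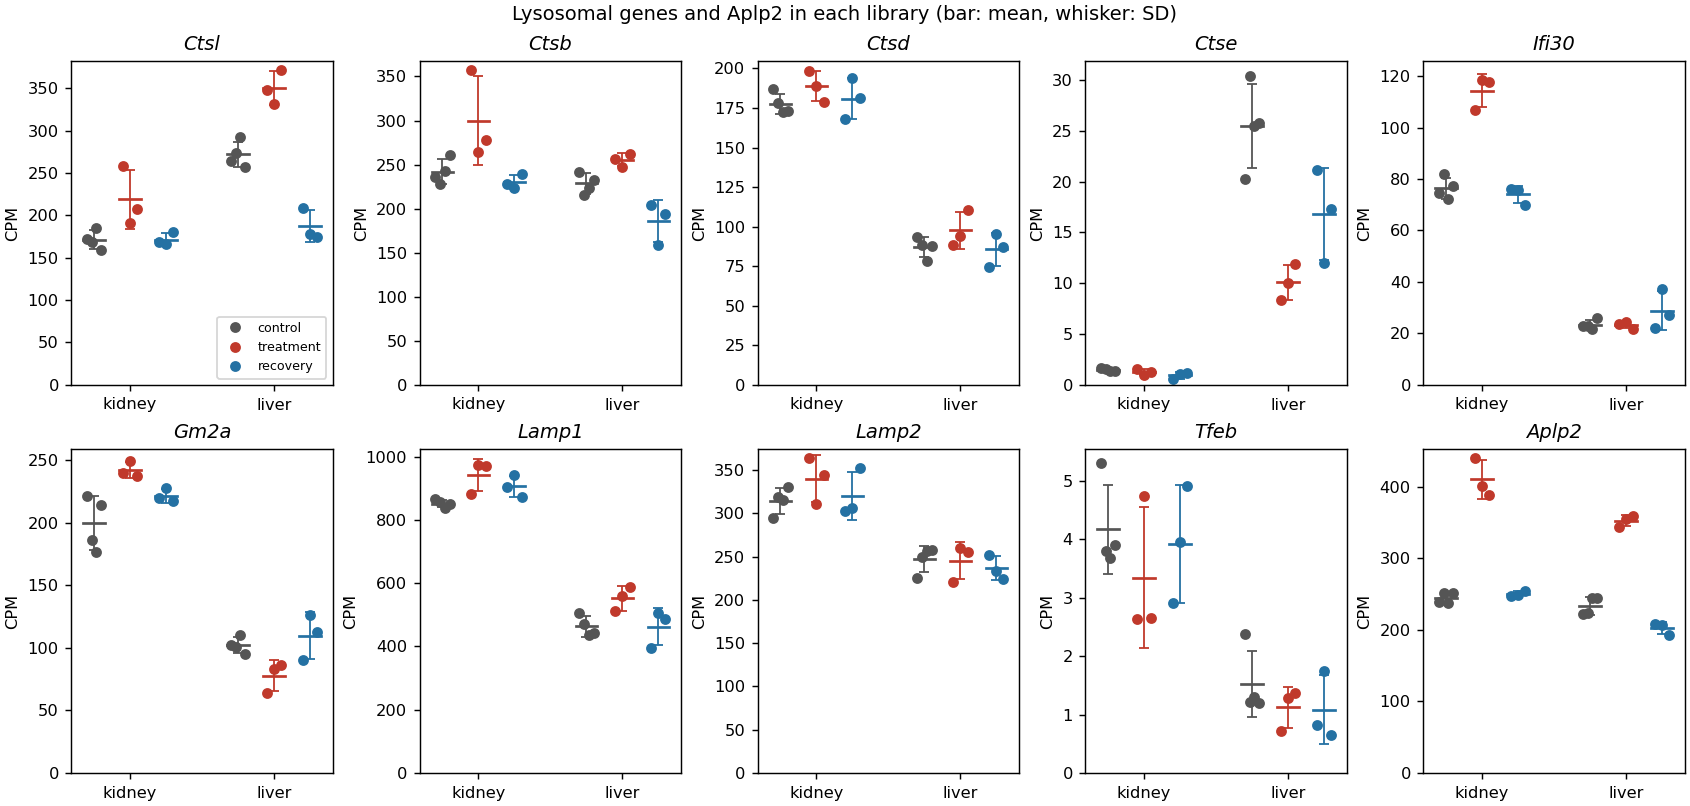
Expression of the 10 genes in each of the 20 libraries, in CPM scaled within each organ, with control, JQ1 treatment and JQ1 recovery libraries as points, the group mean as a bar and the SD as a whisker. The JQ1 treatment libraries of Aplp2 lie between 344 and 440.2 CPM in both organs, above every control and recovery library.

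Cathepsin L (Ctsl, ENSMUSG00000021477), a cysteine endopeptidase of broad specificity, stood at 258, 191 and 207 CPM in the JQ1 treatment replicates 1, 2 and 3 of kidney. The kidney controls were at 172 CPM in the vehicle recovery library and at 168, 185 and 159.7 CPM in the vehicle treatment libraries, and the recovery libraries were at 168, 166 and 180.3 CPM. Every treated library lay above every control, with replicate 1 far above the other two. The log2 fold change was 0.35 ± 0.09 (SE; edgeR, adjusted p = 0.0281), from 171 ± 10.7 CPM (SD, n = 4) to 219 ± 35.1 CPM (n = 3). Without replicate 1 it was 0.22 ± 0.08 (adjusted p = 0.173), and the call was also lost without replicate 3 or without any 1 of the control libraries except vehicle treatment replicate 2 (adjusted p 0.0547 to 0.0754).

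In liver, Ctsl reached 348, 332 and 372 CPM after JQ1, against 264 CPM in the vehicle recovery library and 274, 292 and 257 CPM in the vehicle treatment libraries. The recovery libraries were at 209, 178 and 175 CPM. The 3 groups did not overlap, with treatment above control and recovery below it. The treatment change was 0.37 ± 0.10 on the log2 scale and did not pass the test (adjusted p = 0.168), but it did without the recovery libraries that hold kidney RNA (0.35 ± 0.08, adjusted p = 0.0236), a fit that called 2.3% of 15558 genes. The recovery difference was -0.54 ± 0.10 (adjusted p = 0.108) with all libraries and -0.39 ± 0.12 (adjusted p = 0.838) with recovery replicate 1 alone, at 209 CPM. The effect of treatment differed between organs by 0.01 ± 0.13 on the log2 scale (liver minus kidney, adjusted p = 1.00) with a 95% interval from -0.26 to 0.27.

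Cathepsin B (Ctsb, ENSMUSG00000021939), a cysteine protease that also trims peptides from their ends, followed Ctsl across libraries (Pearson r = 0.87 over the 20 libraries, log2 CPM centred within organ, a description). In kidney it stood at 358, 264 and 278 CPM after JQ1, against 236 CPM in the vehicle recovery library and 228, 243 and 261 CPM in the vehicle treatment libraries. Treated libraries again lay above all controls, the nearest by a few CPM. The change was 0.31 ± 0.09 (adjusted p = 0.0562), and 0.16 ± 0.07 (adjusted p = 0.328) without replicate 1. Against recovery, at 227, 224 and 239 CPM, Ctsb was higher by 0.38 ± 0.09 (adjusted p = 0.0186), and this was lost without treatment replicate 1 (0.24 ± 0.08, adjusted p = 0.0921) and without recovery replicate 1 or 2. In liver, Ctsb was at 257, 247 and 262 CPM after JQ1 and at 216 to 242 CPM in control, a change of 0.16 ± 0.10 (adjusted p = 0.704).

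The aspartic protease cathepsin D (Ctsd, ENSMUSG00000007891), a main endopeptidase of the lysosome, was at 198, 189 and 179 CPM in treated kidney and at 172 to 187 CPM in the 4 controls, and the groups overlapped. Its changes were 0.09 ± 0.07 (adjusted p = 0.56) in kidney and 0.16 ± 0.11 (adjusted p = 0.723) in liver. The 95% intervals ran from -0.04 to 0.22 in kidney and from -0.06 to 0.39 in liver.

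Cathepsin E (Ctse, ENSMUSG00000004552), an aspartic protease of endosomes, moved the other way and was a liver gene here. Liver controls stood at 20.2 CPM in the vehicle recovery library and at 30.4, 25.5 and 25.8 CPM in the vehicle treatment libraries, and JQ1 treatment libraries stood at 8.33, 10.1 and 11.9 CPM. All treated libraries lay below all controls, and the recovery libraries, at 21.1, 12.0 and 17.3 CPM, overlapped the controls. The fall was -1.34 ± 0.20 on the log2 scale (adjusted p = 0.0105), from 25.5 ± 4.15 to 10.1 ± 1.77 CPM. It held without the recovery libraries with kidney RNA (-1.35 ± 0.16, adjusted p = 4.37e-05) and missed the threshold when any 1 treated library was left out (-1.22 to -1.47 on the log2 scale, adjusted p between 0.0528 and 0.116). In kidney, Ctse was at 0.58 to 1.68 CPM in the 10 libraries, too low for a change to be seen (-0.28 ± 0.35).

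Ifi30 (ENSMUSG00000031838) encodes the thiol reductase GILT, which opens disulfide bonds of proteins in endosomes and lysosomes and which interferon gamma induces in antigen-presenting cells. Kidney libraries stood at 107, 118 and 118 CPM after JQ1 and at 74.5, 81.8, 72.4 and 77.1 CPM in the vehicle recovery library and the vehicle treatment libraries. Recovery libraries stood at 70.05 to 76.2 CPM, and treated libraries lay above all others. The rise was 0.58 ± 0.07 (adjusted p = 7.40e-05), and 0.63 ± 0.08 (adjusted p = 4.43e-05) without replicate 1. It was called in each of the 14 alternatives. In liver, Ifi30 was at 23.8, 24.3 and 21.8 CPM after JQ1 and at 21.7 to 25.9 CPM in control, a change of 0.00 ± 0.15 (adjusted p = 0.998). The difference between organs was -0.59 ± 0.17 (liver minus kidney, adjusted p = 0.251) and did not pass the test, with 0.169% of 17710 genes called in that comparison.

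Other genes of the antigen-presentation route fell in treated kidney. Of 9 tested genes of MHC class II presentation, a list chosen with earlier results of these data known, 8 fell in treated kidney and 0 rose. Over all genes tested there, 4.13% were called. The median log2 fold change of the list was -2.28 against -0.01 over all genes. The invariant chain Cd74, which guards the class II groove, fell by 2.40 (adjusted p = 0.00164), and H2-DMb1 and the transactivator Ciita fell by 1.96 and 1.51. Of 15 tested macrophage and dendritic cell markers, 1 was called, near the share of all genes, the receptor Csf1r (-0.54 ± 0.13), which fell. The median of these markers was 0.56, which became -0.22 without replicate 1. In treated kidney the summed macrophage markers ran from 93.5 to 511 CPM against 102 to 146 CPM in control, with 3 to 5 of the 20 markers at 0. In liver, where Ifi30 was at a change of 0.00 and 0.495% of all genes were called, 1 of 8 tested genes of class II presentation fell. The summed class II list ran from 10.0 to 13.9 CPM in treated liver against 58.0 to 126 CPM in control (28.5 to 37.2 against 112 to 295.0 CPM in kidney). The summed B and T cell markers ran from 3.63 to 7.07 CPM in treated kidney against 6.97 to 13.3 CPM in control, and from 1.18 to 1.76 against 2.82 to 5.52 CPM in liver. The part of these cells in the changes of Ifi30, Ctsl and Ctsb was not tested.

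Gm2a (ENSMUSG00000000594), the activator protein that presents GM2 ganglioside to hexosaminidase A, differed in direction between organs. Kidney libraries were at 239.8, 249.7 and 238 CPM after JQ1, against 221 CPM in the vehicle recovery library and 187, 177 and 215 CPM in the vehicle treatment libraries, and liver libraries were at 63.8, 83.4 and 86.5 CPM after JQ1 against 103, 101, 111 and 94.9 CPM in the controls in that order. In kidney every treated library lay above all controls, and in liver every treated library lay below them. The changes were 0.28 ± 0.08 (adjusted p = 0.0458) in kidney and -0.39 ± 0.13 (adjusted p = 0.303) in liver. The kidney call was lost without any 1 treated library and without vehicle treatment replicate 1 or 2 (adjusted p 0.0874 to 0.116), and the liver change was called without the recovery libraries with kidney RNA (-0.40 ± 0.10, adjusted p = 0.0413). The difference between organs was -0.68 ± 0.16 (adjusted p = 0.107), which edgeR did not call and DESeq2 did (-0.68 ± 0.17, adjusted p = 0.0132).

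**Figure D2:**
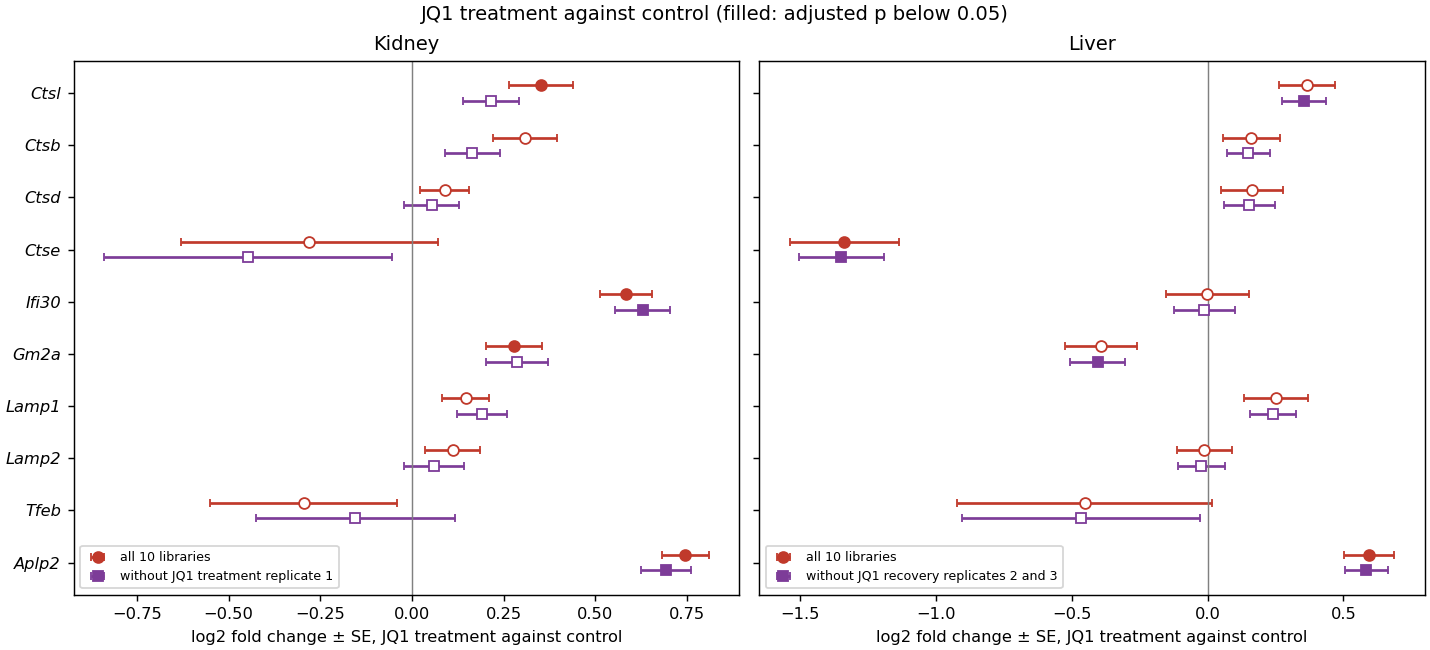
Log2 fold change (± SE) of JQ1 treatment against control for each gene in kidney and liver, with all 10 libraries of the organ (circles) and with the libraries in doubt left out (squares); filled symbols have an adjusted p below 0.05. Aplp2 and Ifi30 in kidney stay filled in both, and Ctsl in liver fills at 0.35 once 2 recovery libraries are left out.

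The membrane glycoprotein Lamp1 (ENSMUSG00000031447) lay above all controls in both organs without passing the test. Kidney libraries were at 883, 973 and 971 CPM after JQ1, against 836 to 864 CPM in control, and liver libraries at 511, 558 and 586 CPM against 435 to 506 CPM. The kidney recovery libraries, at 874 to 940.4 CPM, also lay above all controls and overlapped the treated ones. The changes were 0.15 ± 0.06 (adjusted p = 0.254) and 0.25 ± 0.12 (adjusted p = 0.52). Lamp2 (ENSMUSG00000016534), its companion, changed by 0.11 ± 0.07 (adjusted p = 0.492) in kidney and by -0.01 ± 0.10 (adjusted p = 0.986) in liver, with overlapping libraries in both.

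Lamp2 is made as 3 forms that differ at their cytosolic end. LAMP2A, the form that receives substrates in chaperone-mediated autophagy, corresponds by its coding end to Lamp2-201, LAMP2B to Lamp2-202 and LAMP2C to Lamp2-203. The reference transcripts of GENCODE M21 (chromosome X) share their first 1260 bases and part there. The stretch from that point to the stop codon is shown because it is what separates the forms, with the last 36 bases, which encode the end of the cytosolic tail and the stop codon, in capitals.
Lamp2-201: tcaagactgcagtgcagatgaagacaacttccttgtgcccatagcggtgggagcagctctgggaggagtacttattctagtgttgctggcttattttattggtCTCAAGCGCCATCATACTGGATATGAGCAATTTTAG
Lamp2-202: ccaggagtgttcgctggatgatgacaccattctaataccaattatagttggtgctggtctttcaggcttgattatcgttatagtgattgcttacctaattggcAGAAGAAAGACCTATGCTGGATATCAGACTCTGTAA
Lamp2-203: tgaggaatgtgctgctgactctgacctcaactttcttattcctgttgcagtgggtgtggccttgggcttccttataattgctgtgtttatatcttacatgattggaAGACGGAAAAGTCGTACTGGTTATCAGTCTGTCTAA

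Lamp2-201 held the largest share of Lamp2 TPM (the abundance per transcript length, scaled to the same total in every library) in kidney, at 58.2 ± 3.76% of control (SD, n = 4), 63.1 ± 1.48% of JQ1 treatment (n = 3) and 62.2 ± 1.85% of recovery libraries (n = 3). In liver the shares were 52.8 ± 1.497%, 49.3 ± 5.59% and 56.0 ± 3.22% in that order. The difference between treatment and control was 4.96 percentage points in kidney (exact two-sided permutation p = 0.114) and -3.57 points in liver (exact permutation p = 0.286), and the groups overlapped in both. Lamp2-202 held 35.95 ± 3.50% in kidney and 42.0 ± 1.47% in liver controls (exact permutation p = 0.0286, adjusted 0.429), and Lamp2-203 held 1.14% to 2.90% in all libraries. Of the 60 share comparisons made over the members, 0 passed after adjustment. With 3 against 4 libraries, fully separated shares gave an exact permutation p of 0.0571, as for Ctsl-201 in liver treatment against control, above the threshold. With 4 against 4 libraries the smallest p is 0.0286, which adjustment over the 60 comparisons raised above the threshold however many reached it. No share could therefore pass, and the absence of calls does not show that shares were unchanged.

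**Figure D3:**
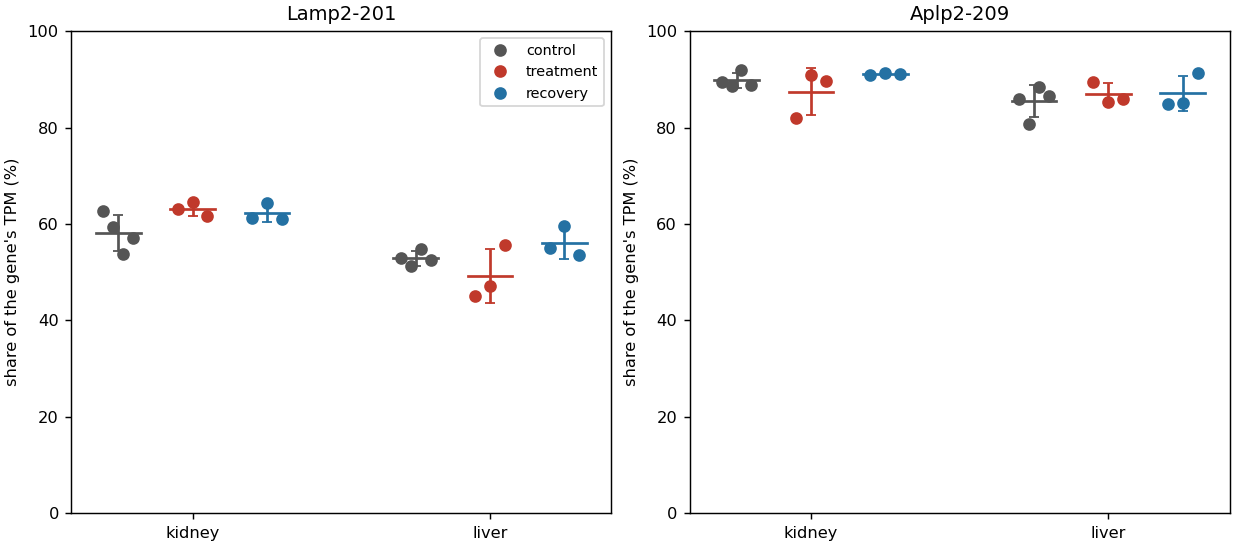
Share of the gene's TPM held by Lamp2-201, which encodes LAMP2A, and by Aplp2-209, in each library of control, JQ1 treatment and JQ1 recovery, with the mean as a bar and the SD as a whisker. Lamp2-201 averages 58.2% in kidney and 52.8% in liver controls, and Aplp2-209 holds over 80% in every library.

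Tfeb (ENSMUSG00000023990), the transcription factor of lysosomal genes, was low. Kidney libraries ran from 2.64 to 5.30 CPM and liver libraries from 0.66 to 2.38 CPM, and groups overlapped in both organs. Its changes after JQ1 were -0.30 ± 0.25 (adjusted p = 0.618) in kidney and -0.45 ± 0.47 (adjusted p = 0.844) in liver, so that a fall or a rise of moderate size was not detectable at this depth. Against control, 0 of 24 tested genes of the TFEB family and its regulators were called after treatment in either organ. Of all genes, 4.13% were called in kidney and 0.495% in liver, so that 0 lies near that share. Against recovery, treated kidney was higher for Mitf (0.39 ± 0.10, adjusted p = 0.0214) and Ppp3cb (0.33 ± 0.09, adjusted p = 0.0309), with 7.31% of genes called. Treated liver was lower for Ywhaz (-0.56 ± 0.11, adjusted p = 0.0229), with 2.29% called and the recovery libraries with kidney RNA in the fit.

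Promoter windows of RefSeq on GRCm38.p6, which run from 250 bases before to 50 after a gene's start, were at hand for 8 of the 10 genes and were searched on both strands for the letters CACGTG and for TCACGTGA, the core of the TFEB family motif, which contains the first. The shorter motif occurred in the windows of Ctsd, Lamp1, Ifi30 and Ctsl, and in 7.15% of 32851 windows of all genes. The longer one occurred in those of Ctsd and Ifi30, and in 0.974% of all windows. No match was found in the windows of Aplp2, Gm2a, Lamp2 and Tfeb. The stretches with the matches, in capitals, are shown because they cover both a gene that rose in kidney (Ifi30) and genes that did not pass the test (Ctsd, Lamp1).
Ifi30 (chr8:70766839-70766874, minus strand): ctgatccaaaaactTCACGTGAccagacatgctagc
Ctsd (chr7:142387905-142387940, minus strand): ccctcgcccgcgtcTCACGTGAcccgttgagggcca
Ctsl (chr13:64370736-64370770, minus strand): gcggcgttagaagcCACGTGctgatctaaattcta
Lamp1 (chr8:13159085-13159160, plus strand): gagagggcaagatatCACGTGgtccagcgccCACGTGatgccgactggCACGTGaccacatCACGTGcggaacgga

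Ctsd had a further match at its position -245, and the 4 matches of Lamp1 began 61, 45, 28 and 15 bases before the start. In treated kidney the genes with a match changed by 0.58 (Ifi30), 0.35 (Ctsl), 0.15 (Lamp1) and 0.09 (Ctsd) on the log2 scale, and those without one by 0.75 (Aplp2), 0.28 (Gm2a), 0.11 (Lamp2) and -0.30 (Tfeb). A match of letters is a description of the window.

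Aplp2 (ENSMUSG00000031996) showed the largest rise among the 10 genes in both organs. Kidney libraries stood at 440.2, 401 and 389 CPM after JQ1, against 238 CPM in the vehicle recovery library and 252, 238 and 251 CPM in the vehicle treatment libraries, and the recovery libraries stood at 248, 248 and 254 CPM. Liver libraries stood at 344, 355 and 359 CPM after JQ1, against 222, 223, 245 and 244 CPM in the controls in that order, with recovery at 209, 207 and 193 CPM. Treated libraries lay above all others in both organs, and the liver recovery libraries lay below all liver controls. The rise was 0.75 ± 0.06 in kidney (adjusted p = 1.87e-06), called in each of the 14 alternatives, and 0.59 ± 0.09 in liver (adjusted p = 0.012). In liver it missed the threshold without any 1 treated library or without vehicle treatment replicate 1 (adjusted p up to 0.116) and against controls of the same time (0.0589), and it passed without the recovery libraries with kidney RNA (0.58 ± 0.08, adjusted p = 2.50e-04). The organs differed by -0.16 ± 0.09 (liver minus kidney, adjusted p = 0.753). The recovery difference in liver, -0.20 ± 0.09, did not pass (adjusted p = 0.299), nor did it with recovery replicate 1 alone (-0.17 ± 0.12, adjusted p = 0.949).

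APLP2 also exists in forms with and without a Kunitz domain, a fold that inhibits serine proteases, and with or without a short insert. Against Aplp2-209, the reference transcript Aplp2-201 carries 168 further bases and Aplp2-202 carries 36, both a multiple of the codon length, and the 168 bases encode the Kunitz domain. The inserts are shown in capitals with 15 bases on each side (GENCODE M21, chromosome 9), because the forms are told apart by them.
Aplp2-201: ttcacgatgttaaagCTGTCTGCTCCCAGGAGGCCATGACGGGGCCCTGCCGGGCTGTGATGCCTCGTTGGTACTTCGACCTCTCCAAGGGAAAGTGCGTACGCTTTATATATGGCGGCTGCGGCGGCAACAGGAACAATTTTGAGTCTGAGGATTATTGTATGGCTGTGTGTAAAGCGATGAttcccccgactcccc
Aplp2-202: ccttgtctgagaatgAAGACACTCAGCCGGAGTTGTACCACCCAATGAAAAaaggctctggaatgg

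Aplp2-209, with neither insert, held 80.8% to 92.0% of Aplp2 TPM in the 20 libraries. Its share was 87.5 ± 4.82% after JQ1 and 89.8 ± 1.54% in control in kidney (exact permutation p = 0.571), and 86.9 ± 2.25% and 85.5 ± 3.32% in liver (exact permutation p = 0.686). The transcript with the Kunitz insert held 0 to 6.47%, and Aplp2-202 held 2.77 ± 1.48% in kidney and 5.94 ± 0.96% in liver controls (exact permutation p = 0.0286, adjusted 0.429). Aplp2-209 therefore held most of Aplp2 both before and after the rise. Among transcripts below the share that was tested, picked after their values were seen, Aplp2-203 was at 4.67%, 6.38% and 6.04% in treated liver and listed at 0 in all liver controls but 1, at 4.86%, and it was at 10.9%, 3.88% and 0 in treated kidney and listed at 0 in all kidney controls. Aplp2-204 lay below all controls in both organs after JQ1, at 2.79% to 3.75% against 4.70% to 5.54% in kidney and 2.10% to 2.94% against 3.08% to 5.06% in liver. Salmon splits reads shared by transcripts through a model, so small shares are estimates.

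Of the other genes, Aplp2 was most like Rps2-ps10, a pseudogene whose reads could also come from its parent gene, over the 20 libraries (Pearson r = 0.95, log2 CPM centred within organ, among 8259 genes). Fbp1, a gluconeogenic enzyme, followed (r = 0.92), with changes of 0.68 in kidney and 0.73 in liver after JQ1, and then Rpl7a (r = 0.90), Sub1 (r = 0.89) and Ttc3 (r = 0.89). Ctsl was most like Etfdh (r = 0.94), followed by Rps2-ps10 (r = 0.87), Ctsb (r = 0.87), Slc40a1, the iron exporter ferroportin (r = 0.87), and Cyb5r3 (r = 0.87). Aplp2 and Ctsl had r = 0.83, and Ctsd and Lamp1 r = 0.80. The points share libraries and treatment groups.

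Among other genes of the lysosome, calls in treated kidney went both ways, where 4.13% of all genes were called. Of 15 other lysosomal proteases, the asparaginyl endopeptidase Lgmn rose (0.41 ± 0.08, adjusted p = 0.00536) and the carboxypeptidase Cpq fell (-0.41 ± 0.08, adjusted p = 0.005). Of 33 glycosidases, sulfatases and lipid hydrolases, 3 rose and 1 fell, with the acid lipase Lipa at 0.54 ± 0.07 (adjusted p = 1.26e-04), the heparan sulfate enzyme Naglu at 0.62 ± 0.13 (adjusted p = 0.00967) and the nuclease Dnase2a at -0.54 ± 0.13 (adjusted p = 0.0221). Of 22 subunits of the vacuolar proton pump, which acidifies the lysosome, 4 rose and 1 fell, with Atp6v0a1 at 0.65 ± 0.11 (adjusted p = 0.00166), Atp6v0a4 at -0.35 ± 0.08 and Atp6v1e1 at 0.27 ± 0.07.

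Of 15 genes of lysosomal sorting, 3 rose and 0 fell, the mannose 6-phosphate receptor Igf2r at 0.44 ± 0.10 (adjusted p = 0.013), Amn at 0.31 ± 0.07 and Vps35 at 0.28 ± 0.07. Of 18 membrane proteins and transporters, the sialic acid exporter Slc17a5 rose (0.30 ± 0.08, adjusted p = 0.0452). By edgeR, 0 of 19 autophagy genes, 20 genes of the APP family and its processing and 4 cathepsin inhibitors were called against control. Against recovery, where 7.31% of genes were called, App was higher (0.25 ± 0.07, adjusted p = 0.0287). The medians of these lists lay between -0.04 and 0.15, against -0.01 over all genes tested. Without kidney JQ1 treatment replicate 1, the proton pump list had 1 rise and 0 falls, and sorting had 1 rise. In treated liver against control, where 0.495% of all genes were called, 0 genes of these lists were called, and list medians lay between -0.06 and 0.09. Against recovery, with 2.29% called and the libraries with kidney RNA in the fit, Map1lc3b (0.59 ± 0.10) and Optn (0.66 ± 0.13) were higher and Atp6v0d2 (-4.02 ± 0.90) was lower.

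Between organs, the levels per length under vehicle ranked Lamp1 first in both (321 ± 7.60 TPM in kidney and 108 ± 9.62 TPM in liver, SD, n = 4). In kidney, Lamp2 (106 ± 4.71 TPM) came next, then Ifi30 (78.1 ± 4.82), Ctsd (70.5 ± 2.94) and Ctsl (66.6 ± 3.75), whose neighbouring ranges overlapped, then Aplp2 (59.2 ± 2.30), Ctsb (41.4 ± 2.41) and Gm2a (38.5 ± 4.43), the last pair overlapping, and Tfeb (1.57 ± 0.28) and Ctse (0.61 ± 0.05) last. In liver, Ctsl (68.3 ± 9.57 TPM) was second, above Lamp2 (49.0 ± 5.75) and Aplp2 (34.8 ± 3.93). There followed Ctsb (23.9 ± 2.17) and Ctsd (21.3 ± 1.25), which overlapped, Ifi30 (14.6 ± 0.65) and Gm2a (12.2 ± 1.79), which also overlapped, Ctse (6.27 ± 1.02) and Tfeb (0.37 ± 0.19).

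The test of kidney against liver under vehicle called 7 of the 10 genes, where 61.8% of 17710 genes were called, and the direction of some turned on the scaling. With TMM factors, which assume that most genes do not differ, kidney was lower for Ctse (-4.86 ± 0.21), Ctsl (-1.45 ± 0.09), Aplp2 (-0.72 ± 0.06), Ctsb (-0.70 ± 0.09) and Lamp2 (-0.44 ± 0.08) and higher for Ifi30 (0.93 ± 0.11) and Ctsd (0.24 ± 0.08). With library totals alone, a choice made after the data were seen, the median of all genes moved from 0.06 to 0.91. Under it Aplp2 (0.14 ± 0.08) and Ctsb (0.15 ± 0.08) were not called, Lamp2 was higher in kidney (0.42 ± 0.08), and Ctse (-4.01 ± 0.19), Ctsl (-0.60 ± 0.09), Ifi30 (1.79 ± 0.15) and Ctsd (1.101 ± 0.11) kept their direction. Lamp1 (0.95 ± 0.10), Gm2a (1.04 ± 0.13) and Tfeb (1.51 ± 0.35) were then called as higher in kidney.

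**Figure D4:**
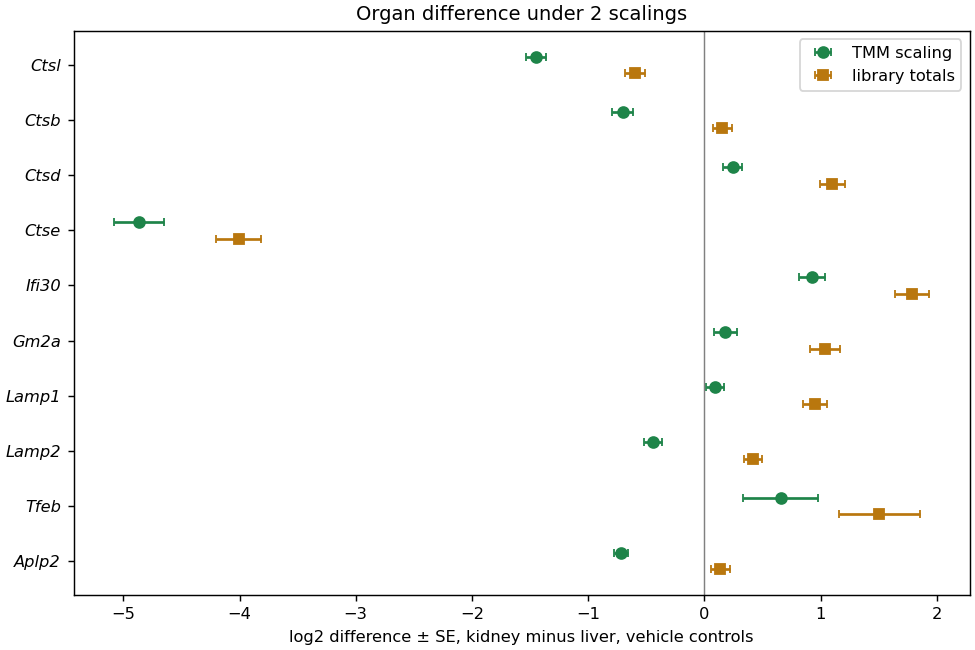
Log2 difference (± SE) of kidney minus liver in vehicle controls for each gene, with TMM scaling (circles) and with library totals alone (squares). Each gene shifts to the right without TMM factors, and Aplp2, Ctsb and Lamp2 change sign, from -0.44 to 0.42 for Lamp2.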

How the data were processed

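Polyadenylated RNA of 20 libraries was trimmed by the authors with fastp 0.20.1 and quantified with Salmon 1.10.0 (mouse transcriptome, mm10 per the labels, GENCODE vM30 per the methods). The deposited tables hold, per transcript, an estimated count of reads, TPM and an effective length, which entered only the length-scaled TPM counts. The authors' estimated counts were summed per gene identifier and rounded, and the members were then found by symbol. Unless said otherwise, CPM use library totals multiplied by TMM factors.

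Each organ was fitted once over its 10 libraries in 3 groups with edgeR 4.0.16 in R 4.3.3 (TMM, filterByExpr at its defaults, 10 counts and a total of 15, robust quasi-likelihood F-test, Benjamini-Hochberg over all genes, threshold 0.05). Organ effects were tested over 20 libraries. The fit was tested on simulated data. Transcript shares of TPM at or above a mean of 5% were compared by exact permutation. Alternatives were RLE scaling, DESeq2 1.42.0, no filter, length-scaled TPM counts, the replicate block, only the groups compared, controls of the same time and leaving out libraries. All 10 members are named, and of each list up to 3 called genes with the lowest p. The members and lists were chosen with earlier results of these data known. Same-numbered libraries did not deviate together (r from -0.13 to 0.16).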

Additional observations from a re-analysis of the deposited data

Results flagged for a closer look

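Tfeb had 1 control library far from the other 3 in each organ. In kidney the vehicle recovery library stood at 5.30 CPM and the vehicle treatment libraries at 3.80, 3.69 and 3.90 CPM, so that the gap took up 0.868 of the range. In liver the vehicle recovery library stood at 2.38 CPM and the others at 1.22, 1.30 and 1.20 CPM, with a gap of 0.913 of the range. The library set apart was in both organs the vehicle library of the later time, from an older animal. Chance alone sets apart about 1 in 20 groups, and 20 groups were looked at.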

How the results depend on the processing

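Calls held under every alternative run for Aplp2 and Ifi30 in treated kidney against control (14) and against recovery (12), for Aplp2 and Ctsl in treated liver against recovery (13), and for Ctse, Ctsl and Ifi30 between organs under vehicle (14). Every other call of a member was lost, or for Lamp2 between organs reversed, under at least 1. In kidney treatment against control, 4 genes were called, 2 with length-scaled TPM counts, 2 with only the groups compared, 3 with the replicate block and 2 to 4 with 1 library left out. In kidney treatment against recovery there were 4, 2 with length-scaled TPM counts and 2 to 4 with 1 library left out. In liver treatment against control there were 2, 4 without both recovery libraries that hold kidney RNA (chosen after seeing the data), 4 with only the groups compared, 1 with controls of the same time and 0 to 2 with 1 library left out. In liver treatment against recovery there were 3, 5 by DESeq2, 5 without the filter, 2 with length-scaled TPM counts, with only the groups compared and with the replicate block, and 2 to 4 with 1 library left out, and Ctsb was called in 4 of 13 alternatives. In liver recovery against control there were 0, 1 by DESeq2, 1 without the filter, and 0 to 4 with 1 library left out. In the difference between organs there were 0, and 1 by DESeq2, Gm2a. Transcript shares had 0 calls under each measure, an outcome that the numbers of libraries fixed in advance.

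Same-numbered libraries did not deviate together (r from -0.13 to 0.16), so the numbers were not taken as pairs. The replicate block gave 3, 0, 3, 2, 0 and 2 members for kidney treatment, kidney recovery and kidney treatment against recovery and for the same liver comparisons.

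Most sign changes were of values near 0, the exception being kidney against liver. In kidney recovery, Ctsl turned to 0.0040 by RLE scaling, 0.0040 by DESeq2, 0.00077 without the filter, 0.0075 with length-scaled TPM counts, 0.015 with the replicate block and 0.0014 with controls of the same time, where Ctsd was at -0.036 and Ifi30 at 0.00050. Tfeb was at 0.26 there with length-scaled TPM counts. With 1 library left out, Ctsl ran from -0.037 to 0.039, Ctsd from -0.021 to 0.084, Lamp2 from -0.047 to 0.070 and Tfeb from -0.28 to 0.090. In kidney treatment, Tfeb was at 0.034 with length-scaled TPM counts. In liver recovery, Lamp1 was at 0.0026 with length-scaled TPM counts, Lamp2 at 0.051 with controls of the same time, and Gm2a, Ifi30 and Lamp2 at -0.19, -0.081 and 0.023 without the libraries with kidney RNA. With 1 library left out, Ctsd ran from -0.12 to 0.046, Gm2a from -0.017 to 0.21 and Lamp1 from -0.077 to 0.076. In liver treatment, Ifi30 ran from -0.035 to 0.050 and Lamp2 from -0.059 to 0.055. Against recovery, Lamp2 was at -0.032 with length-scaled TPM counts and -0.045 without the libraries with kidney RNA, Ifi30 at 0.070 without them, and Tfeb at -0.19 with length-scaled TPM counts and -0.21 to 0.58 with 1 library left out. In the difference between organs, Ctsd ran from -0.025 to 0.13, Ctsl from -0.082 to 0.14 and Tfeb from -0.33 to 0.19. In kidney against liver with library totals, Aplp2, Ctsb and Lamp2 went from -0.72, -0.70 and -0.44 to 0.14, 0.15 and 0.42. The causes of these shifts were not tested, except that leaving out libraries leaves fewer samples.

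Over all genes, kidney treatment had 709 calls and 411 to 1084 under alternatives that moved it by over 1.5 times, kidney recovery 1 and 0 to 240, kidney treatment against recovery 1255 and 675 to 771, liver treatment 72 and 15 to 368, liver recovery 5 and 0 to 2107, liver treatment against recovery 334 and 17 to 2154, and the difference between organs 30 and 3 to 109. In simulated libraries of the kidney treatment comparison (17158 genes), 35 of 100 genes changed by 0.4 and 87 of 100 changed by 0.8 on the log2 scale were recovered. In liver (14559 genes) the numbers were 5 and 57. The changed genes were drawn only from those above a set expression level, with the spread fitted to each gene. At 0.4, most changed genes were thus missed in kidney and nearly all in liver. The changes of Ctsl were smaller still, at 0.35 in kidney and 0.37 in liver. The rates pool genes of many levels and spreads, so they are not the rate for Ctsl itself.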
